A study of Drosophila melanogaster with 4 samples.

Results

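The design crosses 2 transgenes in the wing imaginal disc, and the values described here are departures from additivity, that is, how far the double genotype lies from the sum of the effects of PI3K overexpression and of Hdac3 RNAi. All 4 arrays of the series enter, and each is 1 genotype in 3rd-instar larvae kept at 25 °C. Control discs were yw; en-Gal4/+, PI3K discs yw; en-Gal4/UAS-PI3K ov, Hdac3 RNAi discs yw; en-Gal4/+; UAS-Hdac3 RNAi/+, and discs with both carried en-Gal4/UAS-PI3K ov together with UAS-Hdac3 RNAi/+ in yw flies. Every genotype, control included, carries yw and 1 copy of en-Gal4. The driver acts in the posterior compartment of the disc, so each array mixes RNA of cells with and without the transgenes. Each array was scaled to a common 2% trimmed mean, and the departure of a gene is log2 of its scaled intensity with both, minus log2 with PI3K, minus log2 with Hdac3 RNAi, plus log2 in control. A departure of 0 means that the transgenes multiplied independently, a positive value that the double genotype was higher than additive, and a negative value that it was lower. Of 11982 named genes, 7301 were at or above a background floor of 26.9 on all 4 arrays and have a departure. Another 4042 were under the floor on all 4.

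PI3K, the lipid kinase downstream of the insulin receptor, drives cell growth in the disc through Akt and TOR, and it keeps the transcription factor FOXO out of the nucleus. Hdac3 is a histone deacetylase that acts with the SMRTER corepressor to hold target genes at low acetylation. When the effect of one perturbation depends on the presence of the other, geneticists speak of an interaction, and the departure is its measure on the log2 scale.

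Each genotype has 1 array, so no departure could be set against a spread between replicates, and no test is given. A departure also sums the errors of 4 arrays. In 431 genes with 2 or more measured probe sets, probe sets of the same gene differed in departure by a root mean square SD of 0.24 log2, which is an error within these 4 arrays only. Neither perturbation was checked in the arrays, since Hdac3 and the genes for subunits of PI3K were not analysed here. The driver gene en, which specifies posterior identity, had intensities of 1428 in control, 1150.1 with PI3K, 1281 with Hdac3 RNAi and 1376 with both, with a departure of 0.42. All 8 wing disc markers on the array were above the floor in every genotype, with a summed intensity of 8749 in control, 6453 with PI3K, 10110.0 with Hdac3 RNAi and 9296 with both.

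Departures were small for most genes. Their median was 0.01, their quartiles were -0.11 and 0.15, and their SD was 0.36 log2. Within 0.5 log2 of additive lay 6831 genes, or 93.6%. A departure of 1 log2 or more, a factor of 2, above additive was found in 22 genes (0.301%), and 1 log2 or more below it in 69 genes (0.945%), 91 genes in either direction (1.25%). The sizes were unequal as well, reaching 2.29 for krimp on the high side and -5.71 for Fbp2 on the low side. Just inside the cut were zfh2 at 1.01 and CG6912 at 1.05 above additive, and Sid at -1.02 and CG11170 at -1.04 below it. Just outside were Atf3 and shep, both at 0.98, and srp at -0.99 and CG8112 at -0.97. Genes with some arrays under the floor give bounds: 17 were at least 1 log2 below additive and 0 at least 1 log2 above.

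A gene can fall below additive because a single transgene raised it, because the combination lowered it, or both. Among the 69 genes below, the PI3K array was the highest of the 4 in 56, and the array with both was the lowest in 53. Among the 22 genes above, PI3K was the lowest in 15 and control the highest in 12. No gene above additive had its highest value with PI3K, and no gene below had its lowest there. The departure subtracts each single genotype and adds control and the double genotype. Picking genes by it therefore favours such orders, and these counts are a description, not separate support. The plot of the PI3K effect in both backgrounds shows where these genes lie.

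**Figure D1:**
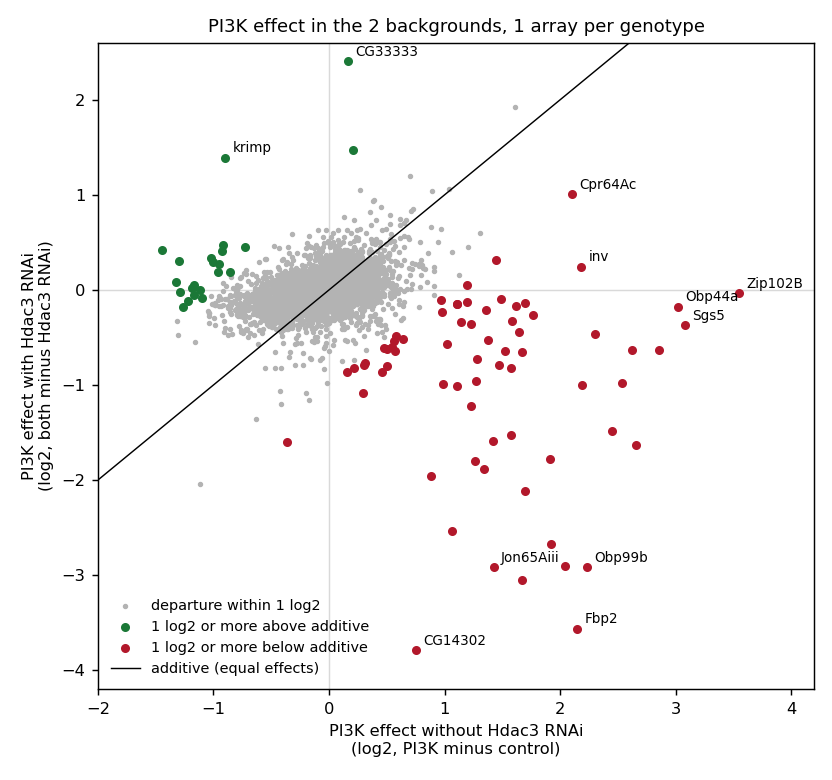
Effect of PI3K on each of 7301 genes, as log2 differences between single arrays, without Hdac3 RNAi (x axis, PI3K minus control) and with it (y axis, both minus Hdac3 RNAi). The line marks equal effects, where the departure is 0, and most of the 69 genes below it (red) lie at positive x and negative y, while most of the 22 genes above it (green) lie at negative x and near 0 on y.

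Genes of the larval fat body departed farthest. The list of fat body proteins had 7 of 8 named members measured, with a median departure of -4.60 against 0.01 over all genes, and 5 of the 7 were past the cut, all below additive. Fbp2, an alcohol dehydrogenase-related fat body protein, had 719 in control, 3188 with PI3K, 1507 with Hdac3 RNAi and 128 with both, a departure of -5.71. Obp99b, an odorant-binding protein gene active in the fat body, had 1189 in control, 5593 with PI3K, 2132 with Hdac3 RNAi and 283 with both (-5.15). Both were higher in each single genotype than in control and lowest with both transgenes.

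Storage and lipid carrier genes had the same shape. Fbp1, which serves the uptake of storage proteins, had 457 in control, 1458 with PI3K, 1422 with Hdac3 RNAi and 171 with both (-4.73). Lsp2, a hexameric storage protein of the hemolymph, had 622 in control, 2358 with PI3K, 1297 with Hdac3 RNAi and 203 with both (-4.60). For apolpp, the precursor of the main lipid carrier of the hemolymph, the intensities were 105, 219.6, 231 and 39.96 in the same order (-3.60). In these 5 genes each transgene alone came with at least 1.79-fold the control intensity, while the combination came with 0.381 of it or less. Tsf1, the transferrin gene, was close to additive, with 124, 142, 161 and 179 and a departure of -0.04, and Apoltp, a lipid transfer particle, had 0.63. Outside the list, CG34166 (-4.95), CG15369 (-4.29), CG2233 (-3.81), CG5958 (-3.01) and Obp99c (-2.83) were also more than 0.5 log2 higher in each single genotype and more than 0.5 lower with both than in control, so 10 genes shared this shape.

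Fat body lies beside the disc in the larva. The summed intensity of the 5 fat body markers on the array was 3091 in control, 12816 with PI3K, 6589 with Hdac3 RNAi and 824 with both, and all 5 were above the floor on every array. In bulk RNA, fewer cells of a type and less RNA per cell cannot be told apart, and the part of fat body carried along at dissection in these departures was not tested. Markers of hemocytes, blood cells that also attach to the disc, were summed at 1872, 1638, 2295 and 1697 in the same order, with all 6 above the floor, and were not ordered like the fat body sums.

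**Figure D2:**
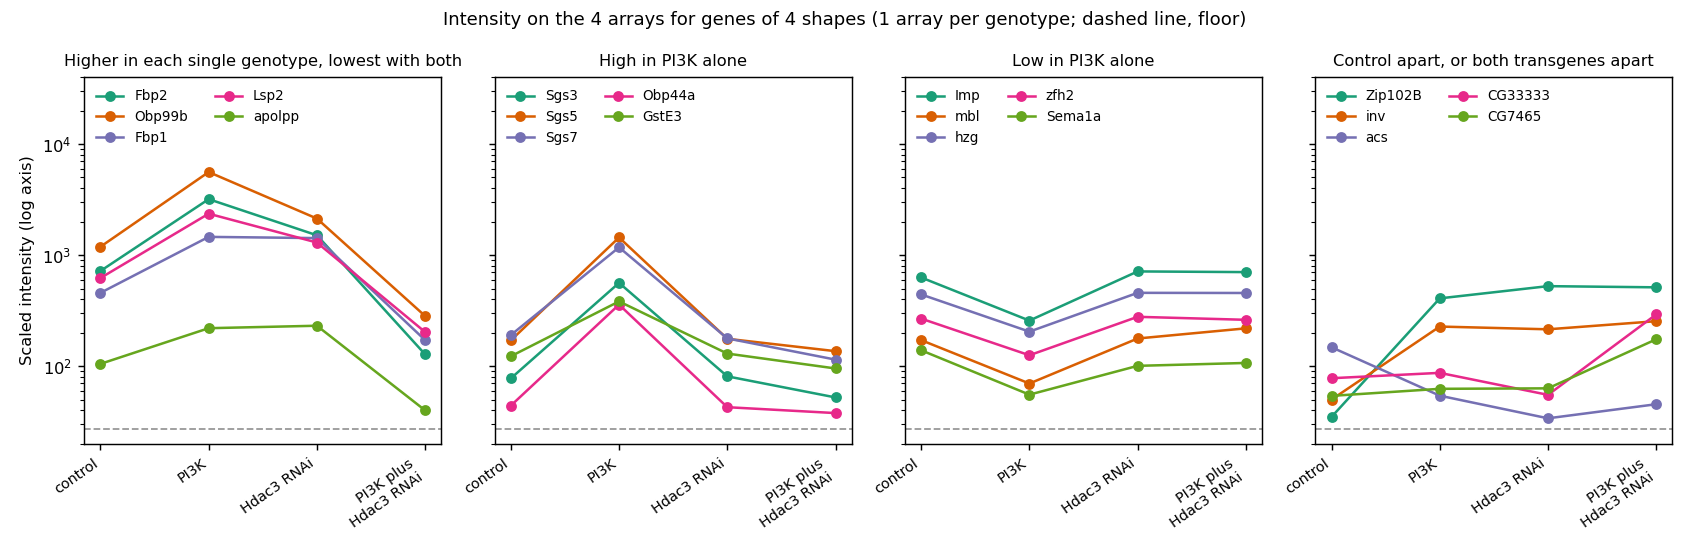
Scaled intensity (log axis) of named genes on the 4 arrays, 1 array per genotype, with the background floor of 26.9 dashed. The panels hold fat body genes that were lowest with both, genes high in PI3K alone, genes low in PI3K alone, and genes for which control or the double genotype stood apart, such as Zip102B at 34.9 in control and 408 to 525 elsewhere.

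Salivary glue genes had a different shape and were high in PI3K discs only. Sgs3, 1 of the secreted proteins that fix the puparium to its substrate, had 77.6 in control, 562 with PI3K, 80.96 with Hdac3 RNAi and 52.3 with both (-3.49). Sgs5 had 171 in control, 1441 with PI3K, 176 with Hdac3 RNAi and 136 with both (-3.45), and Sgs7 had 190.3, 1174, 178 and 114 in the same order (-3.26). Hdac3 RNAi alone left Sgs3, Sgs5, Sgs7 and Sgs8 within 0.10 log2 of control. Of 21 named glue and related genes only 5 were measured on all 4 arrays, all 5 below additive with a median of -3.26, and the remaining 1, Eig71Ee, was at -0.81. Summed over the 6 salivary markers the intensity was 625, 4123, 636 and 449.95 in the same order, with Sgs1 under the floor on every array. The part of gland RNA in this result was not tested.

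Digestive enzymes were mixed. The serine protease gene Jon65Aiii had 515 in control, 1382 with PI3K, 391.9 with Hdac3 RNAi and 51.9 with both (-4.34), and its neighbour yip7, also a protease, had 228, 548, 172 and 49.4 (-3.06). Jon65Aiv had 566 in control, 1792 with PI3K and 530.4 with Hdac3 RNAi and was under the floor with both, so its departure was -5.97 or lower. These proteases were highest with PI3K and lowest with both. With Hdac3 RNAi alone Jon65Aiv was close to control (-0.09 log2), while Jon65Aiii (-0.39) and yip7 (-0.41) were somewhat lower. LysS, a digestive lysozyme, was at -3.19, and Jon25Bii (-1.91) and Jon25Bi (-1.57) were high in PI3K discs only. Of 47 named digestive genes 13 were measured, with 5 past the cut below additive and a median of -0.58, while alphaTry (0.08) and Jon66Ci (0.33) were above 0. Summed over the 6 midgut markers the intensity was 1462, 3875, 1244 and 261, with Jon99Ci under the floor throughout, and its part in the departures was not tested. Odorant-binding protein genes split in the same way, with 3 of 11 measured members past the cut (Obp99b, Obp44a at -3.20 and Obp99c) and 4 above 0, up to Obp56a at 0.49.

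The lists of fat body, glue, digestive, muscle, hemocyte and odorant-binding genes hold 16 of the 69 genes below additive and 0 of the 22 above. Without them, 53 genes remained past the cut below additive and 22 above. Of all 7301 measured genes, 7217 lie outside these lists. At that share few or none of 22 genes would be in them, so the 0 is no contrast. CG14302 had 402 in control, 676 with PI3K, 394 with Hdac3 RNAi and 28.5 with both (-4.54), so it stood close to the floor only in the double genotype. The neighbours CG8997 (133, 723, 84.2 and 30.1; departure -3.93) and CG7953 (147, 848, 86.7 and 44.01; -3.51) were high with PI3K and below control in both genotypes with Hdac3 RNAi. The clotting gene fon had 176, 660.4, 204 and 59.6 (-3.68), high with PI3K and lowest with both. GstE3, a glutathione transferase, had 123 in control, 383 with PI3K, 129.8 with Hdac3 RNAi and 95.3 with both (-2.09), the lipid droplet protein gene Lsd-1 had 44.98, 129, 48.8 and 31.2 (-2.16) and the cytochrome P450 gene Cyp4d1 had 42.5, 99.3, 49.5 and 38.6 (-1.58). In GstE3 and Cyp4d1 the PI3K array alone was high.

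In several genes below additive the effects of each transgene alone were smaller, among them 2 enzymes of glutamate metabolism. Gs1, the mitochondrial glutamine synthetase, had 168 in control, 231 with PI3K, 215 with Hdac3 RNAi and 118 with both (-1.32). Oat, ornithine aminotransferase, had 149 in control, 221 with PI3K, 214 with Hdac3 RNAi and 138 with both (-1.21). Each was 0.36 to 0.57 log2 above control in each single genotype. With both, Gs1 differed from control by -0.51 log2. Oat differed by only -0.11, less than the probe set SD of 0.24, so it was near control there. The tetraspanin genes Tsp42Ep (-3.22) and Tsp42Ek (-2.12), membrane proteins from a gene cluster, were high with PI3K and lowest with both. Idgf6, a chitinase-like growth factor, was at -1.08, and regucalcin, with 2575, 3796, 3079.7 and 2121 on the 4 arrays, at -1.10.

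A different set was below additive because control alone was low. Zip102B, a zinc transporter gene, had 34.9 in control, 408 with PI3K, 525 with Hdac3 RNAi and 512 with both (-3.58). Galt, an enzyme that feeds galactose into sugar metabolism, had 51.2, 166, 157 and 143 (-1.83), and inv, the paralogue next to en, had 49.99, 227, 215 and 254 (-1.94). In these the 3 genotypes with a UAS transgene lay within 0.37 log2 of each other and 2.79-fold or more above control, so adding the log2 effects predicts a double genotype far higher than any array. The choice of scale matters here. When effects were added on the intensity scale, the departure of Zip102B was -0.81, that of inv -0.63 and that of Galt -0.93, no longer past the cut. The mirror image, control alone high, was seen in CG14107 with 82.4, 36.7, 38.3 and 39.7 (1.22) and, with wider spread among the transgene arrays, in NT5E-2, a nucleotidase gene, with 128, 64.03, 45.01 and 55.1 (1.29) and acs with 148, 54.2, 33.9 and 45.4 (1.87). On the intensity scale acs was at 0.76 and CG14107 at 0.56.

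Above additive, 11 of the 22 genes were more than 0.5 log2 lower with PI3K alone and within 0.5 of control in both other genotypes. Imp, an RNA-binding protein of growth and developmental timing, had 628 in control, 257 with PI3K, 713 with Hdac3 RNAi and 703 with both (1.27). The splicing regulator mbl had 171 in control, 69.8 with PI3K, 177 with Hdac3 RNAi and 219 with both (1.60). Sema1a, a semaphorin of axon guidance, had 139, 55.4, 101 and 107 in the same order (1.41). In each, PI3K discs had 0.409 of the control intensity or less, and discs with both had 0.769 of it or more. The hinge factor zfh2 (268, 125, 278 and 261), the zinc finger gene mamo (93.6, 41.6, 90.04 and 86.7), the phosphatase gene hzg (442, 204, 457 and 456) and the poly(A) polymerase gene Gld2 (96.7, 41.5, 107 and 98.6) followed the same pattern, with departures of 1.01, 1.12, 1.11 and 1.11.

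The value of krimp, a Tudor-domain protein of the piRNA pathway that silences transposons, was the highest departure of the 7301. Its intensities were 215 in control, 115 with PI3K, 61.1 with Hdac3 RNAi and 160.1 with both (2.29), lower in each single genotype than with both. The axon pruning gene plum had 559, 294, 364 and 483 (1.33), a milder case of the same shape. For Hsp68, an inducible chaperone, the intensities were 768, 378, 1429.6 and 1810.3 (1.36), low with PI3K and highest with both. A probe set that the annotation assigns to several heat shock genes, and that is left out of the gene values, had 1870, 1083, 2574 and 3242 (1.12), in the same order as Hsp68. Of the 21 measured genes of the chaperone list 6 were above 0 and 15 below, with a median of -0.04, from Hsp26 at -0.22 to Hsp68. Next below Hsp68 was stv, a co-chaperone gene, with 486, 327, 422 and 459 (0.69), lowest with PI3K but not raised with both. Only CG33333 and CG7465 were above additive because the double genotype itself was high, with 77.9, 87.01, 55.1 and 292 (2.25) and 53.99, 62.5, 63.1 and 175 (1.26).

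Across all genes, an array counted as standing apart when it lay 1 log2 or more from the median of the other 3 and those spanned 0.5 log2 or less. The PI3K array did so for 33 genes (0.452%), 13 higher and 20 lower. Control stood apart for 7 genes (0.0959%), Hdac3 RNAi for 3 (0.0411%) and the double genotype for 1 (0.0137%). Those 3 for Hdac3 RNAi were CG3649 (457, 549, 196 and 406), low there, and Nplp2 (155, 136, 309 and 146) and CG42807 (69.3, 67.1, 139.7 and 78.3), high there. Genes low in PI3K only included sty, an inhibitor of receptor tyrosine kinase signalling (543, 269, 619 and 557), InR, the insulin receptor (465, 188, 541 and 389.8), and Sxl, the master gene of sex determination (561, 302, 617 and 633), with departures of 0.86, 0.83 and 0.93. With a single array per genotype, a PI3K effect that Hdac3 RNAi removes and an error of the PI3K array have the same shape and cannot be told apart.

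**Figure D3:**
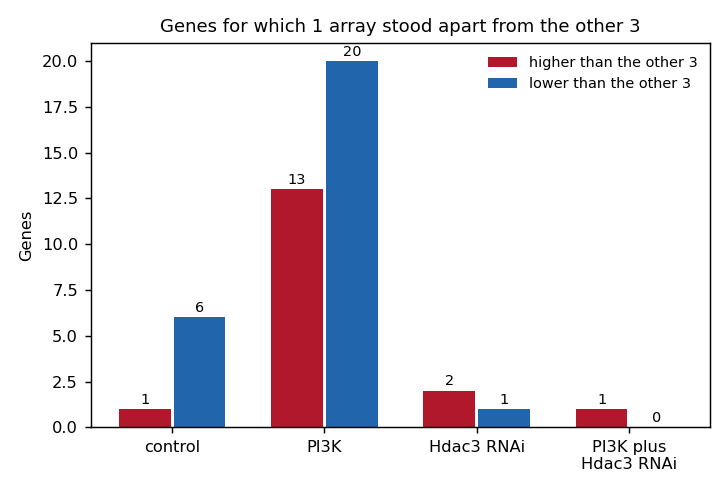
Number of genes for which 1 array lay 1 log2 or more above (red) or below (blue) the median of the other 3, with those 3 within 0.5 log2 of each other. PI3K has 13 and 20 genes, control 1 and 6, Hdac3 RNAi 2 and 1, and the double genotype 1 and 0.

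Among 49 gene lists, 11 had a median departure at least 0.15 log2 above that of all genes, 7 at least 0.15 below, and 31 lay between. Over all genes 52.7% were above 0 and 47.3% below. Of the 11 higher lists, 7 were of signalling and patterning, but other lists of that kind were not shifted. Dpp signalling had 10 of 15 genes above 0 (median 0.09) and Hippo pathway genes 12 of 17 (0.06). JNK and wound response had 17 of 23 (0.11). All 8 measured genes of Wingless signalling were above 0 (median 0.22), as were 16 of 18 genes of Notch signalling and the E(spl) genes (0.27), 14 of 16 of EGF receptor signalling (0.20), 8 of 10 of Hedgehog reception (0.22) and 28 of 30 wing identity and hinge genes (0.21). Apart from zfh2, none of these members was past the cut. The Wingless, EGF receptor, Hedgehog and wing identity lists had median spans in the longest quartile of gene span. In that quartile 74.6% of genes were above 0. Counts against span quartiles, also for several lists described below, are given with the spans.

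Values of single members show the common shape, a lower level with PI3K and a level near control with both. The Wingless antagonist nkd had 1182 in control, 782 with PI3K, 1310.4 with Hdac3 RNAi and 1216 with both (0.49). The Hedgehog effector ci had 2455 in control, 1478 with PI3K, 2771 with Hdac3 RNAi and 2406 with both (0.53), and mam, a coactivator of Notch, had 262, 148, 245 and 246 (0.82). Dll, the distal limb factor, had 609.9, 419.5, 761 and 691 (0.40), and vg, the wing selector, 992, 687, 1172 and 1056 (0.38). In all 5, by the probe set used for each gene, PI3K was the lowest array and the other 3 lay within 0.32 log2 of control. A further probe set of mam, with 83.7, 86.5, 81.7 and 90.2 (0.10), was not lower with PI3K. Against the trend ran Su(fu) (-0.18), a negative regulator of ci, Psn (-0.14), the protease subunit that cleaves Notch, and rn (-0.11), a proximal-distal patterning gene.

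Ecdysone response genes were above 0 in 20 of 21 members, with a median of 0.26. The nuclear receptor gene ftz-f1 had 78.8 in control, 47.2 with PI3K, 77.6 with Hdac3 RNAi and 87.9 with both (0.92), and the repressor gene Blimp-1 had 528, 305, 514 and 525 (0.82). The early gene br had 3609, 2067, 4091 and 3719 (0.67) and the receptor gene EcR 184, 112, 234 and 203 (0.52). Cyp18a1, which inactivates the hormone, was the exception at -0.09 (0.08 with effects added on the intensity scale): its intensities of 533, 480.05, 265 and 224 were low in both genotypes with Hdac3 RNAi, so the effects added. Axon guidance genes were above 0 in 18 of 19 members (median 0.22), with Sema1a and plum past the cut and caps (0.72), NetB (0.63) and PlexB (0.63) next. Differentiated muscle genes (11 of 13 above 0, median 0.31) and adult muscle precursor genes (10 of 13, median 0.19) were higher too, with sls, the titin-like protein of the sarcomere, at 287, 166, 289 and 239 (0.52) and zfh1 at 0.40. Their markers sum to 334, 194, 328 and 278 for differentiated muscle, with Mlc2 under the floor on every array, and to 1335, 1106, 1322 and 1158 for the precursors. The part of attached muscle in these 2 lists was not tested.

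FOXO-responsive genes had a median of 0.32 over 10 members but pointed both ways, with 7 above 0. The TOR inhibitor gene scyl had 1556 in control, 912 with PI3K, 1784 with Hdac3 RNAi and 1943 with both (0.89), and Mnt, a Myc antagonist, had 170.4, 96.9, 172 and 165 (0.76). Both were low with PI3K only. Men, malic enzyme, had 245, 373, 245 and 222 (-0.75), and ImpL2, which binds insulin-like peptides, had 1195, 2106, 812 and 954 (-0.59), both highest with PI3K. The wider list of insulin and TOR components was above 0 in 15 of 19, with a median of 0.14, from Ilp8 at -0.33 to InR at 0.83. The Osiris family, with 7 of 23 members measured, had a median of 0.18 but only 4 above 0.

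Of the 7 lists at least 0.15 below the median of all genes, 4 were those of fat body, glue, digestive and odorant-binding genes described above, and 3 were lists of growth and metabolism. Mitochondrial ribosomal proteins were below 0 in 69 of 72 members, with a median of -0.14. Their median log2 effect was 0.24 for PI3K without Hdac3 RNAi and 0.10 with it, so the effect was smaller, not turned round. The lowest, mRpL18, had 459.96 in control, 702 with PI3K, 613 with Hdac3 RNAi and 676 with both (-0.47), higher in all 3 transgene genotypes than in control, and the highest was mRpL4 at 0.13. Glycolysis genes were below 0 in 9 of 10 members (median -0.17), with Pglym78, phosphoglycerate mutase, at 912, 1202, 1010.3 and 1061 (-0.33) and Pfk, phosphofructokinase, at 1184, 1443, 952 and 997 (-0.22), and with Hex-A above 0 at 0.14. Genes of amino acid supply were below 0 in 17 of 24 (median -0.19), led by Gs1 and Oat and with Pepck2 at -0.82 and P5CS, an enzyme of proline synthesis, at -0.57. The asparagine synthetase gene AsnS was above 0 at 0.36.

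Smaller shifts of the same sign were seen in proteasome genes, below 0 in 27 of 30 (median -0.10), oxidative phosphorylation, below 0 in 48 of 60 (-0.08), aminoacyl-tRNA synthetases, 21 of 32 (-0.10), and glutathione S-transferases, 20 of 28 (-0.10). Proteasome and oxidative phosphorylation genes are short, and in the shortest span quartile only 35.2% of genes were above 0. Taking off the median of each gene's span quartile left -0.05, -0.03, -0.11 and -0.06 for these 4 lists in the same order. Above their span quartile's median were 8 of 30, 20 of 60, 9 of 32 and 12 of 28. Close to additive were also lists of protein synthesis, cell cycle and cell death, with cytosolic ribosomal proteins (31 genes, median -0.03), ribosome biogenesis (33 genes, -0.01), translation factors (39 genes, 0.00), G1/S and replication (40 genes, 0.02), cell death (10 genes, 0.05) and G2 and mitosis (32 genes, 0.07). Chromatin lists had medians above 0, which fell towards or below 0 when gene span was taken into account, as given with the spans: Polycomb, trithorax and Brahma genes were above 0 in 24 of 30 (0.13), with jing at 0.52 and Sce at -0.18, and deacetylases and corepressors in 12 of 15 (0.07). Within the latter the SMRTER gene Smr, a corepressor with which Hdac3 acts, was highest at 0.35, with 1046, 686, 1390.03 and 1166 on the 4 arrays.

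**Figure D4:**
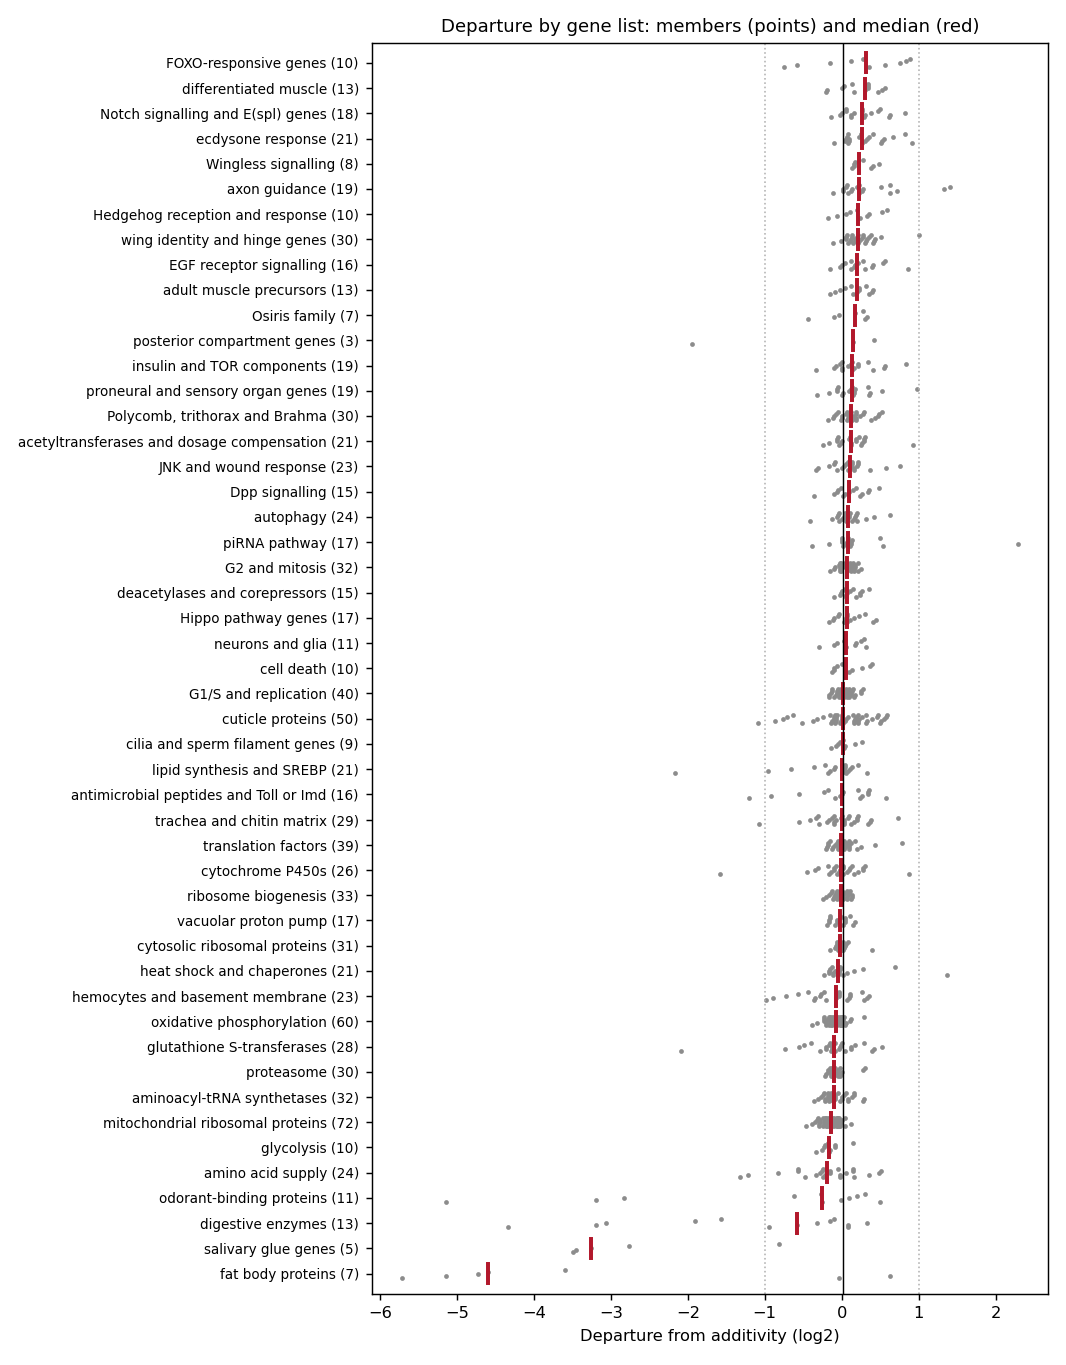
Departure from additivity (x axis, log2) of the measured members (points) and their median (red) for each of 49 gene lists, with the number of measured members in brackets. The black line is the median of all genes at 0.01 and dotted lines mark a departure of 1 log2 in each direction. The medians of the fat body, salivary glue and digestive lists are -4.60, -3.26 and -0.58, and those of the other lists lie between -0.26 and 0.32.

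Departures were also read by chromosome, a grouping made after the values were seen. The 41 measured genes of chromosome 4, a small chromosome rich in heterochromatin and coated by the protein POF, had a median departure of 0.42 (quartiles 0.22 and 0.55). Above 0 were 36 of the 41, or 87.8% against 52.7% of all genes, although only zfh2 and CG33978 were past the cut. The medians of the other arms lay between -0.01 (2L) and 0.02 (3L and X), so the X chromosome, whose male dosage compensation rests on histone acetylation, had a median within 0.03 of those of the large autosome arms. On chromosome 4 the median log2 effect of PI3K was -0.47, with 37 of 41 genes lower, against a median of -0.09 for PI3K with Hdac3 RNAi, 0.07 for Hdac3 RNAi alone and -0.02 for both against control.

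Genes of unrelated function shared this shift. MED26, a subunit of the Mediator complex, had 1170.4 in control, 671 with PI3K, 1299 with Hdac3 RNAi and 1265 with both (0.77), Taf3, a subunit of the general factor TFIID, 961, 588, 1091 and 1070.3 (0.68), and eIF4G1, a translation initiation factor, 2509, 1806, 2937 and 2844 (0.43). The PI3K array was the lowest of the 4 in all 3. Rnf11, a RING finger gene, was low with PI3K and high in both genotypes with Hdac3 RNAi (388, 189, 859 and 673; 0.69). Exceptions were apolpp and Zip102B, described above, and Rad23 (-0.14), ATPsynbeta (-0.14) and CG11076 (-0.06). Some values count both here and in a list described above, those of zfh2 in wing identity and hinge genes, ci in Hedgehog reception, PlexB, Eph and Ephrin in axon guidance, eIF4G1 in translation factors, ATPsynbeta in oxidative phosphorylation and apolpp in fat body proteins.

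Long genes also departed upward, and chromosome 4 genes are long, with a median span of 10484 bp. Over 7270 genes with a known span the median departure was -0.05 for the shortest quartile, -0.03 and 0.04 for the middle quartiles and 0.13 for the longest, with a Spearman rho of 0.35 across genes, which are not independent. The PI3K effect ran against span without Hdac3 RNAi (rho -0.46) and, less strongly, with it (rho -0.26). The Hdac3 RNAi effect did not follow span without PI3K (rho 0.06). Measured as both minus PI3K, it rose with span (rho 0.33), but that difference subtracts the PI3K array, which itself fell with span. Both against control ran slightly against span (rho -0.17), so the double genotype was not higher for long genes than control. Within the longest quartile, the 30 genes of chromosome 4 still had a median of 0.45 against 0.13 for the 1788 others, and 29 of the 30 were above 0. The 22 genes past the cut above additive had a median span of 8168 bp and the 69 below it 1413 bp. The ends of control transcripts also differed between arrays. The ratio of 3′ to 5′ signal for actin was 3.36 in control, 2.02 with PI3K, 3.25 with Hdac3 RNAi and 2.85 with both, and for eIF-4a 3.95, 3.11, 3.94 and 3.67, while for GAPDH it was 2.17, 1.92, 2.21 and 1.995. The part of RNA quality or labelling in these departures was not tested. Taking off the median of each gene's span quartile left 0.32 for the Notch list, 0.27 for FOXO-responsive genes, 0.13 for ecdysone response, 0.10 for wing identity and hinge genes, 0.09 for axon guidance, -0.08 for mitochondrial ribosomal proteins and -0.21 for glycolysis. It left 0.16 for EGF receptor signalling, 0.14 for Wingless signalling, 0.13 for Hedgehog reception and 0.18 for differentiated muscle. For insulin and TOR components 0.03 remained, and for amino acid supply -0.19. Above their span quartile's median were 15 of 18 Notch genes, 11 of 16 EGF receptor genes and 7 of 8 Wingless genes. For Hedgehog reception it was 8 of 10, for wing identity and hinge genes 22 of 30. For ecdysone response it was 17 of 21, for axon guidance 14 of 19 and for each muscle list 9 of 13. For FOXO-responsive genes it was 6 of 10. In lists of growth and metabolism it was 15 of 72 mitochondrial ribosomal proteins, 1 of 10 glycolysis genes and 6 of 24 genes of amino acid supply. Polycomb, trithorax and Brahma genes were then at 0.05, and deacetylases and corepressors at -0.02 with 7 of 15 above 0.

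**Figure D5:**
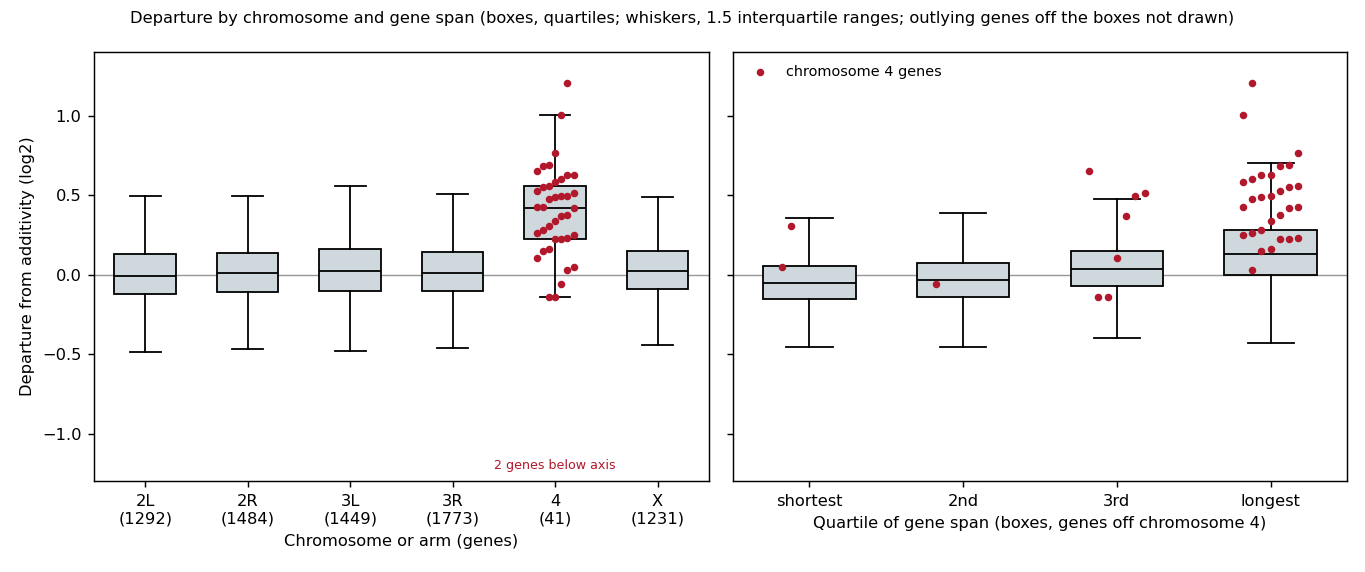
Departure from additivity (y axis, log2) by chromosome or arm (left) and by quartile of gene span (right), as boxes of quartiles with the 41 chromosome 4 genes as red points. Chromosome 4 sits at a median of 0.42 against -0.01 to 0.02 elsewhere, and in the longest quartile at 0.45 against 0.13. apolpp and Zip102B, near -3.6, lie below the axis.

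Since PI3K against control and both against Hdac3 RNAi share no array, the PI3K effect was measured by separate pairs of arrays. Over 7301 genes the estimates correlated with a Pearson r of 0.08 and a Spearman rho of 0.40, and 67.2% of genes had the same sign. The Hdac3 RNAi effect, measured without and with PI3K, gave an r of 0.28, a rho of 0.46 and 68.4% of the same sign. Genes are not independent, and these are descriptions. On the control background 55 genes were 2-fold or more higher with PI3K (0.753%), and 9 on the Hdac3 RNAi background (0.123%), with 3 genes in both, CG32055, Cpr64Ac and Obp56d, which is 5.45% of the former and 33.3% of the latter. Another 18 were 2-fold or more higher on the former and 2-fold or more lower on the latter. Lower by 2-fold or more were 25 genes (0.342%) and 28 genes (0.384%), with only the antifungal peptide gene Drs in both, 4% of the former and 3.57% of the latter. Its intensities were 158 in control, 72.9 with PI3K, 309 with Hdac3 RNAi and 75.4 with both, low in both genotypes with PI3K and highest with Hdac3 RNAi alone.

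Cpr64Ac, a cuticle protein gene, was below additive although both effects kept their directions. It had 165 in control, 707 with PI3K, 55.5 with Hdac3 RNAi and 112 with both (-1.09), higher with PI3K and lower with Hdac3 RNAi on either background. Hdac3 RNAi came with 18 genes 2-fold or more higher (0.247%) and 20 lower (0.274%) on the control background, and with 28 higher (0.384%) and 61 lower (0.836%) on the PI3K background. Higher on both were CG9021 and Rnf11, 11.1% of the former and 7.14% of the latter. Lower on both were AsnS, CG7900, Cyp18a1, Ect3, insc and Cpr64Ac, which is 30% and 9.84%.

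Some of the genes that departed were neighbours. Of the 90 genes past the cut with a known position, 17 formed 9 pairs of departing genes within 10 genes of each other, and all 9 pairs departed in the same direction. They include Sgs8, Sgs7 and Sgs3 on 3L, Jon25Bii and Jon25Bi on 2L, Obp99c and Obp99b on 3R, Tsp42Ek and Tsp42Ep on 2R, and CG7465 and Tie, a receptor tyrosine kinase gene at 1.18, on 3L. Several are members of 1 gene family, whose probe sets can share signal. How many pairs 90 genes would form by placement alone was not worked out. Most departing genes, 69 of 91, were below additive, which bears on the shared directions. Probe sets of 1 gene could be compared in 4 of the 91 genes. For regucalcin both were past the cut (-1.41 and -1.10), and for CG33978 they were at 0.55 and 1.20. For mbl the 5 probe sets ran from 0.35 to 1.63, all above 0, and for Imp the 4 ran from -0.18 to 1.497, where the probe set at -0.18 was near the floor with 41.8 in control.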

How the data were processed

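Total RNA of wing discs was labelled with biotin and hybridised to Affymetrix arrays, per the labels' protocols. The authors deposited intensity values on a linear scale for 18952 probe sets per array, made with MAS5 per the submitters' processing notes. Its settings, any pooling of discs and array batches are not given in the sources used. Departures used log2 of these deposited values after scaling each array to a 2% trimmed mean of 283.83 (deposited values 281 to 287). The number of arrays limits the precision. Probe sets with 1 symbol in the platform annotation of 2016 (13647, of which 13544 matched RefSeq Release 6 by Entrez ID) named 11982 genes. Each gene took its probe set of highest mean. The 402 probe sets with several symbols and 4720 with none were left out of gene values. The floor is the 90th percentile of 125 odorant and gustatory receptor probe sets. Where an array was under it, a departure was a bound or none. Genes to name were picked by a rule, and the text gives only part of them. The rule took the 15 highest and 15 lowest departures, 5 bounds in each direction and the highest and lowest member of each list. It also took members of lists 0.15 or more from the median of all genes, and en, inv and hh. Last came 3 genes for each array standing apart. Among those not given are hh and all bounds except Jon65Aiv. Other genes past the cut, just outside it or on chromosome 4, genes 2-fold apart on both backgrounds, and stv, were named after their values were seen. The lists and comparisons were chosen with earlier results of these data known. Python 3.11.15, numpy 2.4.6, pandas 2.3.3 and scipy 1.17.1 were used, and the calculation was tested on simulated data.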

Additional observations from a re-analysis of the deposited data

Results flagged for a closer look

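For 18 genes the PI3K effect was 2-fold or more upward without Hdac3 RNAi and 2-fold or more downward with it, a difference that was not tested. Their departures were -5.71 for Fbp2, -5.15 for Obp99b, -4.95 for CG34166, -4.73 for Fbp1, -4.60 for Lsp2, -4.34 for Jon65Aiii, -4.29 for CG15369, -3.93 for CG8997, -3.81 for CG2233, -3.68 for fon, -3.60 for apolpp, -3.22 for Tsp42Ep, -3.19 for LysS, -3.10 for CG16704, -3.06 for yip7, -3.01 for CG5958, -2.45 for CG12115 and -2.12 for Tsp42Ek. For 8 genes the Hdac3 RNAi effect was likewise upward without PI3K and downward with it: Fbp2 (-5.71), CG34166 (-4.95), Fbp1 (-4.73), Lsp2 (-4.60), CG2233 (-3.81), apolpp (-3.60), LysS (-3.19) and Obp99c (-2.83). Among probe sets without exactly 1 gene symbol, 32 of 1550 measured ones (2.06%) departed by 1 log2 or more, 18 above additive and 14 below. A single probe set shared by Adhr and Adh, genes of alcohol metabolism, had 84.4 in control, 333 with PI3K, 166 with Hdac3 RNAi and 39.1 with both, a departure of -4.07.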

How the results depend on the processing

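The counts of 22 genes above and 69 below additive ranged from 7 to 27 and from 17 to 108 over the alternatives. Halving the floor gave 108 below, and a floor 4 times higher gave 7 above and 17 below, since fewer genes are then measured on all 4 arrays. Other scalings, the mean of all probe sets, additivity on the intensity scale, and leaving out probe sets that can match several transcripts, the other-tissue lists or chromosome 4 genes kept both counts within 1.5 times. Halving the floor moved the median of salivary glue genes to -2.76 and of digestive enzymes to -0.025. The higher floor turned the odorant-binding median to 0.10 and raised the correlation of the PI3K effects on both backgrounds to 0.24 and of the Hdac3 RNAi effects to 0.38. On the intensity scale the fat body median was -3.82. Where the other arrays had to span 0.3 log2 or less, control stood apart for 4 genes and PI3K for 21, and with no limit on the span the counts were 30 for control, 84 for PI3K, 29 for Hdac3 RNAi and 32 for both. Of 838 values of named genes under alternatives, 37 moved by more than the probe set SD and 1 changed sign, Cyp18a1 from -0.09 to 0.08 on the intensity scale. The mean of all probe sets gave 0.89 for Imp, 0.60 for Sxl, 0.46 for mam and 0.39 for shep, and the intensity scale 0.80 for Hsp68 and 1.99 for Sema1a. The chromosome 4 median stayed between 0.37 and 0.45 over its 8 alternatives, which, like the span correction, were added after the data were seen. No paired analysis was possible because each genotype has 1 array. Differences near the floor are limited by signal over background.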
